A study of Mus musculus with 6 samples.

Results

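Granzymes and perforin are the contents of the granules with which natural killer (NK) cells and CD8 T cells kill other cells. 7 genes of this system were followed, picked by their symbols: the granzymes Gzma, Gzmb, Gzmc and Gzmk, the pore-forming protein Prf1, the granule membrane protein Nkg7 and the death ligand Fasl. They are 7 of the 33696 genes in the deposited tables, and all 7 were found there once. Their Ensembl identifiers are ENSMUSG00000023132 (Gzma), ENSMUSG00000015437 (Gzmb), ENSMUSG00000079186 (Gzmc), ENSMUSG00000042385 (Gzmk), ENSMUSG00000037202 (Prf1), ENSMUSG00000004612 (Nkg7) and ENSMUSG00000000817 (Fasl).

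The data are single-cell RNA counts of CD45+ cells, the blood-derived cells, sorted without Dapi, a dye that stains dead cells, from mammary tumours of mice. The series title names triple negative breast cancer, inhibition of the receptor MERTK and the drug cyclophosphamide. The 6 libraries each carry their own treatment label. CTX, Combined, MRX, ctxd18t and combod18t were analysed, and VC was not analysed here. By the protocol, mice of day 7 got their treatment 3 hours before tissue was taken. It assigns 4 sets of on-chip barcodes in 1 capture to Combination, CTX, MRX and VC. The labels ctxd18t and combod18t carry d18, read here as day 18, which the protocol does not mention. MRX, CTX and Combined are called the day-7 libraries after the protocol, since their own labels carry no day. The labels spell out none of the treatment names and give no strain, age, tumour line or number of mice. Each group is therefore 1 library of unknown pooling, and no difference between libraries could be tested. Every interval below is a 95% interval that covers counting error only.

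A killer lymphocyte stores granzymes, which are serine proteases, with perforin in secretory granules and releases both towards a target cell. Perforin opens the target's membrane, granzyme B cleaves substrates that start programmed cell death, and the other granzymes have other cleavage preferences. Nkg7 takes part in the release of the granules, and Fas ligand kills through a receptor on the target without granules. Granzyme K marks CD8 T cells with a memory-like state, and granzyme B is also made by activated regulatory T cells.

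The 5 libraries held 4085 to 9064 barcodes and 39820290 to 100733879 counts of unique molecules (UMIs). After filtering, 5171 cells of MRX, 8506 cells of CTX and 4273 cells of Combined, and 3845 cells of ctxd18t and 3858 cells of combod18t were kept, with medians of 6239 to 8940 UMIs per cell. Cells were clustered without the 7 genes and without the other granule genes, and clusters were named from marker lists. NK-like cells (markers such as Ncr1 and Klrb1c) numbered 650 in MRX, 614 in CTX and 940 in Combined, and 107 in ctxd18t and 108 in combod18t. CD8 T-like cells numbered 808 in MRX, 535 in CTX and 220 in Combined, and 595 in ctxd18t and 765 in combod18t. CD4 T-like cells numbered 383 in MRX, 540 in CTX and 289 in Combined, and 342 in ctxd18t and 1396 in combod18t, and regulatory T-like cells 176 in MRX, 294 in CTX and 234 in Combined, and 169 in ctxd18t and 228 in combod18t. Epithelial-like cells, which should lack CD45, numbered 3 to 131 in a library. CTX and combod18t shared 34 cell barcodes, Combined and ctxd18t shared 21, and the other 8 pairs of these libraries shared 0. By these barcodes ctxd18t carries the on-chip barcode set of Combined, and combod18t that of CTX. Whether the names of the day-18 libraries are exchanged was not tested, and every direction between them is one between libraries as labelled. Without the shared barcodes, all 25 member values that differed by the fold used below still did.

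The sequences before the start sites are shown for 5 genes whose counts in single cells are described further on: 4 neighbouring granzymes and Prf1, which acts with granzymes. Gzme, Gzmd, Gzmc and Gzmb lie on chromosome 14, in that order, with Gzmg, Gzmn and Gzmf between Gzmd and Gzmc, and Prf1 lies on chromosome 10. Each run is the 250 bases before the annotated start, 5′ to 3′ on the gene's strand, from RefSeq (GRCm38.p6), in lower case with motif matches in capitals.
Gzmb (chr14:56262335-56262584, minus strand): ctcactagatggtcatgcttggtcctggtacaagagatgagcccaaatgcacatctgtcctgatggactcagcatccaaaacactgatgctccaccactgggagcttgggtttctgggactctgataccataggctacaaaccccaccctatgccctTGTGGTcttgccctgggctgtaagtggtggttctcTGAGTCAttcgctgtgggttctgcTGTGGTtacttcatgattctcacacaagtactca
Gzmc (chr14:56234658-56234907, minus strand): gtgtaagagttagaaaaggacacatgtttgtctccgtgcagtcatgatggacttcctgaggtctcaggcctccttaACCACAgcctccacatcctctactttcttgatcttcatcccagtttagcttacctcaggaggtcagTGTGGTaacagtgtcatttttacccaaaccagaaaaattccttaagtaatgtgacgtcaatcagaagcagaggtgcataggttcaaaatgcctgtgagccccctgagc
Gzmd (chr14:56132594-56132843, minus strand): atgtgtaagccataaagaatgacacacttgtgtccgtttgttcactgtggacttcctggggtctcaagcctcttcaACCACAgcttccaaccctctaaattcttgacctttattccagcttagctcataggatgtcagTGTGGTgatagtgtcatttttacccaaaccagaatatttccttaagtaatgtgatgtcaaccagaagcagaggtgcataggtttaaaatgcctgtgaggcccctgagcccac
Gzme (chr14:56120626-56120875, minus strand): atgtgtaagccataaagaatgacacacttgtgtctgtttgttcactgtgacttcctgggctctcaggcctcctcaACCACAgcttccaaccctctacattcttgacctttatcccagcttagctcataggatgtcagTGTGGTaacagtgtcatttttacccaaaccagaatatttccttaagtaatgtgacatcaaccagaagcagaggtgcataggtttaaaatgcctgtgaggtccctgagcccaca
Prf1 (chr10:61297586-61297835, plus strand): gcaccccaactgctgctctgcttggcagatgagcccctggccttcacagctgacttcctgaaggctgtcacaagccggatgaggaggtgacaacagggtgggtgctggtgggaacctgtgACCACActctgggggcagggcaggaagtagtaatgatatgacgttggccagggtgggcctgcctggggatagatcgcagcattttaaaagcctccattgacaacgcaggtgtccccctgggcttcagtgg

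The capitals mark TGTGGT, the core of the RUNX motif, or its reverse complement ACCACA, and TGAGTCA, a match of the AP-1 motif TGANTCA. Both strands were searched for these and for the T-box motif AGGTGTNA, and no match overlapped another. RUNX matches stood before 5 of the 7 members: 2 in Gzmb, 2 in Gzmc and 1 each in Gzma, Prf1 and Nkg7. Of 32851 mouse promoters of this length, 14% held that motif. The AP-1 match stood in Gzmb alone among the 7 (6.75% of promoters), and the T-box match in Nkg7 alone (2.68%). The windows of Gzmk and Fasl held none of these letters, which says nothing about the factors. The Gzmd and Gzme windows were 94.8% identical, and Gzmc was 81.5% identical to Gzmd and 82.1% to Gzme. Gzmb, the direct neighbour of Gzmc, was 51.9% identical to it, which is close to the 51.6% between Gzmb and Gzma, a granzyme of chromosome 13.

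These counts come from the 3′ ends of transcripts, so copies with alike ends can share reads. The last 300 bases of the 4 member granzymes were at most 57.2% identical to any other granzyme. The ends of Gzmd, Gzme, Gzmf, Gzmg and Gzmn were 79.2% to 88.3% identical to each other, and the values of those genes are uncertain for that reason.

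NK-like cells held most of the Gzma in all 5 libraries, and most of the Prf1 and Gzmb in the 3 day-7 libraries. The NK-like share of all Gzma counts was 96% in MRX, 90.7% in CTX and 95.7% in Combined, and 69.5% in ctxd18t and 80.8% in combod18t. Their share of Prf1 counts was 90.7% in MRX, 87.6% in CTX and 96.2% in Combined, and 24.2% in ctxd18t and 34.5% in combod18t. Prf1 was thus mainly NK-like RNA in MRX, CTX and Combined, while in ctxd18t and combod18t CD8 T-like cells held 53.8% and 35.7% of it. For Gzmb the NK-like share was 65.1% in MRX, 59.1% in CTX and 79.8% in Combined, and 22.9% in ctxd18t and 27.5% in combod18t. Gzmk sat mainly with CD8 T-like cells, which held 85% in MRX, 65.4% in CTX and 48.7% in Combined, and 67.9% in ctxd18t and 68.1% in combod18t of its counts. These shares move with the number of cells of each class, and NK-like cells were 2.78% and 2.8% of the kept cells in ctxd18t and combod18t against 7.22% to 22% in the day-7 libraries.

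**Figure D1:**
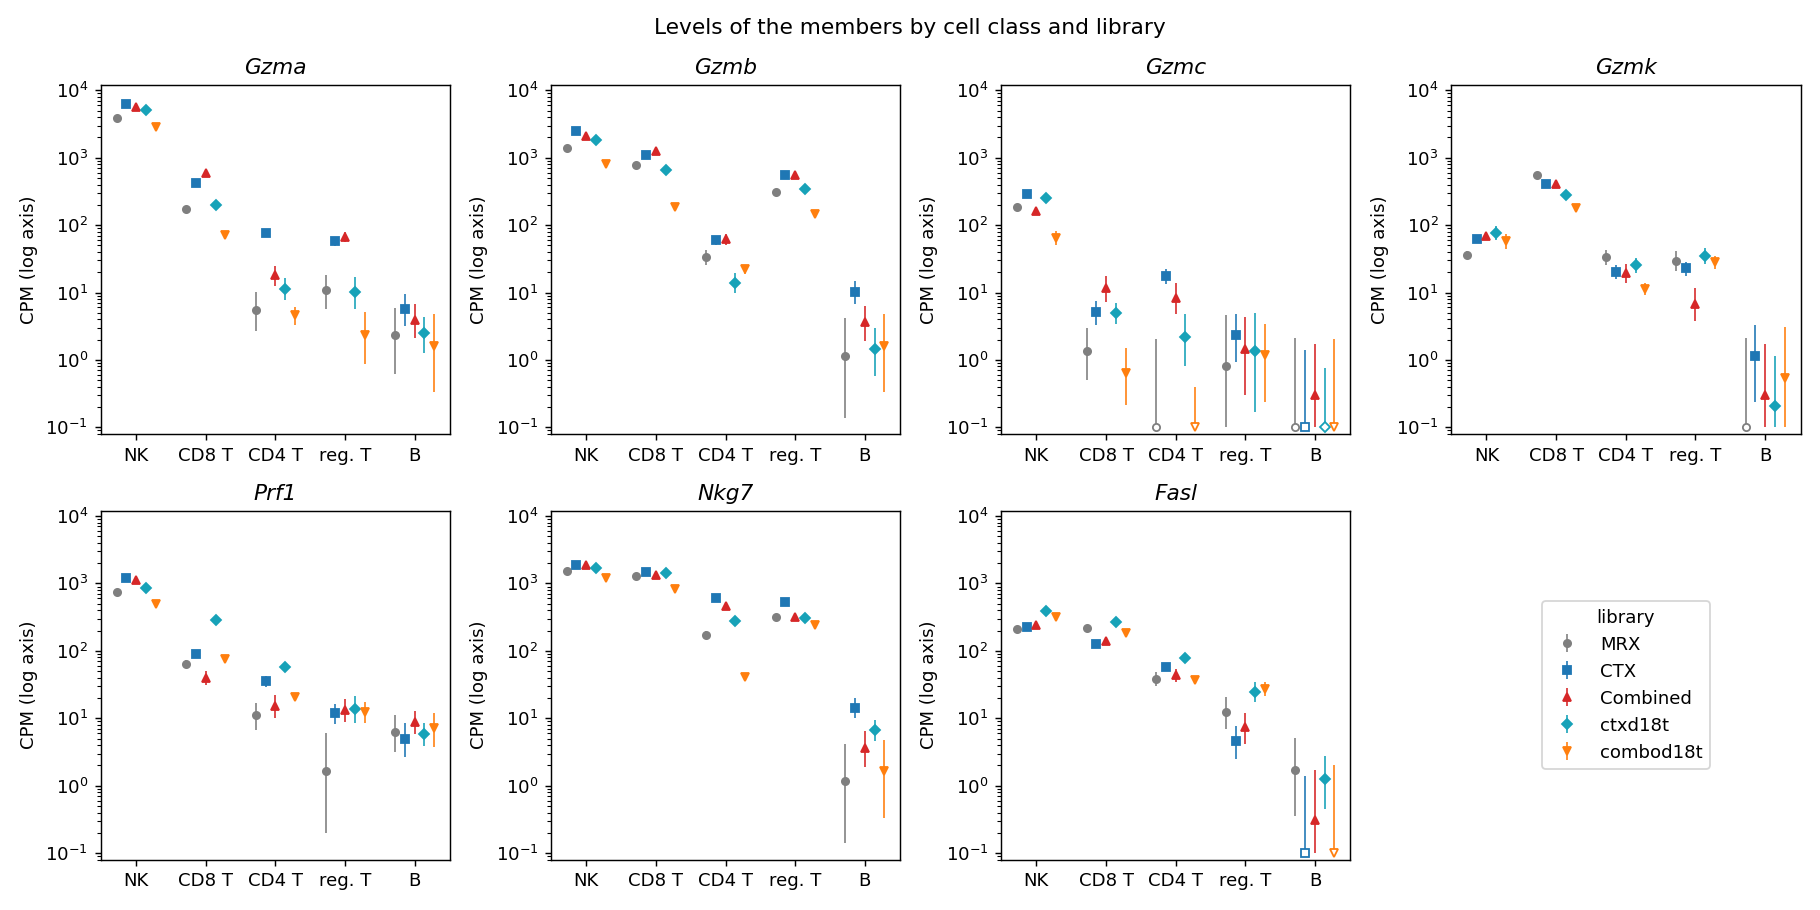
Level of each member in CPM (log axis) in the summed cells of each class, 1 point for each library, with bars for the 95% Poisson interval; open symbols are sums of 0 counts drawn at the axis floor of 0.1. Of the NK-like, CD8 T-like, CD4 T-like and regulatory T-like cells, NK-like cells stand highest for Gzma, Gzmb, Gzmc and Prf1 in each library and CD8 T-like cells for Gzmk, while the B-like sums, a class that should lack these genes, reach at most 14.4 CPM.

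Levels are given as CPM, the gene's part of all UMIs of a class in that library, scaled as the unit's name says. They compare 1 gene between cells and libraries, not 1 gene with another. CD8 T-like and CD4 T-like values leave out the CD8-expressing cluster T2 and the CD4-expressing cluster T11, which the naming rule kept apart. As a background, B-like cells held 1.64 to 5.69 CPM of Gzma, 1.15 to 10.2 of Gzmb and 1.15 to 14.4 of Nkg7. The day-7 and day-18 libraries, so named, differ in day and, judged by the barcodes they share, in capture, so an order of levels over all 5 describes these libraries and compares neither days nor treatments.

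Gzma, a tryptase that is abundant in resting NK cells, stood in NK-like cells at 3853 CPM (3801 to 3905) in MRX, 6307 (6239 to 6376) in CTX and 5661 (5611 to 5711) in Combined, and 5155 (5011 to 5301) in ctxd18t and 2900.2 (2802 to 3001) in combod18t. CTX was highest and MRX lowest among the day-7 libraries, with no overlap of intervals, and combod18t was below ctxd18t. The CD8 T-like level of Gzma was 174 CPM (162 to 187) in MRX, 419 (401 to 437) in CTX and 600.0 (566 to 636) in Combined, and 198 (187 to 209) in ctxd18t and 70.3 (64.5 to 76.5) in combod18t. There Combined was highest and MRX lowest on day 7, and combod18t was again below ctxd18t, again with no overlap of intervals. The CD8 level was below the NK-like level in every library. Among CD4 T-like cells Gzma ranged from 4.59 CPM in combod18t to 76.3 in CTX, and in regulatory T-like cells from 2.34 in combod18t to 67.7 in Combined.

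Gzmb, the granzyme that activates caspases in target cells, stood in NK-like cells at 1412 CPM (1381 to 1444) in MRX, 2486 (2444 to 2529.6) in CTX and 2069 (2039 to 2099) in Combined, and 1817 (1732 to 1905) in ctxd18t and 812 (761 to 867) in combod18t. CTX was highest and combod18t lowest of the 5. CD8 T-like cells held 767 CPM (742 to 794) in MRX, 1111 (1082 to 1141) in CTX and 1256 (1206 to 1307) in Combined, and 653 (633 to 673) in ctxd18t and 187 (177 to 197) in combod18t. The order there was Combined, CTX, MRX, ctxd18t and combod18t, with no overlap between neighbours. That is the order without the CD8-expressing cluster T2, which had 331 cells at 35.1 CPM in MRX and 52 cells at 4.43 in ctxd18t. Levels with T2 in the class are not given here, so the order may not hold for all CD8-expressing cells. Regulatory T-like cells held 313 CPM (282 to 346) in MRX, 547 (521 to 574) in CTX and 558 (526 to 591) in Combined, and 345 (315 to 376) in ctxd18t and 147 (132 to 162) in combod18t. CTX and Combined could not be told apart in regulatory T-like cells, nor could MRX and ctxd18t, and combod18t was lowest. CD4 T-like cells held less, 33.8 CPM in MRX, 59.5 in CTX and 62.1 in Combined, and 14 in ctxd18t and 22 in combod18t.

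Gzmc, a granzyme of the chromosome 14 cluster linked to strong activation, was found mainly in NK-like cells, at 187 CPM (176 to 199) in MRX, 294 (279 to 309) in CTX and 164 (155 to 173) in Combined, and 255 (224 to 289) in ctxd18t and 64.1 (50.3 to 80.6) in combod18t. Among CD8 T-like cells it was at 1.36 CPM in MRX, 5.07 in CTX and 11.6 in Combined, and 5.0 in ctxd18t and 0.651 in combod18t. The 26 counts of 8 gamma-delta T-like cells of ctxd18t all came from 1 cell. The NK-like sums in the day-18 libraries rested on 242 and 73 counts, most of them from single cells described below.

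Gzmk, a tryptase of memory-like CD8 T cells, stood in CD8 T-like cells at 545 CPM (524 to 567) in MRX, 407 (389 to 425) in CTX and 408 (379.9 to 438) in Combined, and 280.2 (267 to 294) in ctxd18t and 182 (172 to 192) in combod18t. MRX was highest, CTX and Combined could not be told apart, and combod18t was lowest. NK-like cells held 36.5 CPM in MRX, 61.7 in CTX and 68.1 in Combined, and 75.9 in ctxd18t and 58 in combod18t. Thus MRX had the highest CD8 level but the lowest NK-like level of the 5 libraries.

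Prf1, which forms the pore, stood in NK-like cells at 741 CPM (718 to 764) in MRX, 1203 (1174 to 1233.6) in CTX and 1120.5 (1098 to 1143) in Combined, and 858 (800.1 to 919) in ctxd18t and 490.1 (450.3 to 533) in combod18t. CTX was highest and combod18t lowest. The CD8 T-like level was 64.5 CPM (57.2 to 72.4) in MRX, 90.5 (82.3 to 99.3) in CTX and 39.5 (31.1 to 49.6) in Combined, and 291 (278 to 305) in ctxd18t and 75.2 (69.2 to 81.6) in combod18t. ctxd18t was highest there and Combined lowest. Regulatory T-like cells, which had Gzmb in every library, held at most 13.7 CPM of Prf1, near the 8.85 CPM that B-like cells reached.

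Nkg7, the granule membrane protein, varied least of the 7 across libraries within NK-like and CD8 T-like cells. It stood in NK-like cells at 1534 CPM in MRX, 1897 in CTX and 1867 in Combined, and 1693 in ctxd18t and 1199.8 in combod18t. CD8 T-like cells held 1278 CPM in MRX, 1489 in CTX and 1330.3 in Combined, and 1422 in ctxd18t and 831 in combod18t, so combod18t was lowest in both classes. In CD4 T-like cells it spread more widely, at 174 CPM (155 to 194) in MRX, 605 (579 to 632) in CTX and 459.7 (429.7 to 491) in Combined, and 281 (261 to 302) in ctxd18t and 41.2 (37.2 to 45.5) in combod18t. The level in combod18t was lowest and that in CTX highest, and no intervals overlapped.

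Fasl, which kills through the Fas receptor, stood in NK-like cells at 211 CPM (199 to 224) in MRX, 226 (213 to 239) in CTX and 239.9 (229.7 to 250.4) in Combined, and 394 (355 to 436) in ctxd18t and 323 (291 to 358) in combod18t. The CTX interval overlapped those of MRX and Combined, which lay apart from each other, and ctxd18t was highest, with an interval that overlapped that of combod18t. CD8 T-like cells held 218 CPM (204 to 232) in MRX, 128 (118 to 138) in CTX and 139.7 (123 to 158) in Combined, and 268 (256 to 282) in ctxd18t and 186 (176 to 196) in combod18t. CTX and Combined overlapped and were lower than MRX, and ctxd18t was highest. In MRX the NK-like and CD8 T-like intervals overlapped, and in the other 4 libraries the CD8 T-like level was lower.

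Shares of cells with a UMI were compared at equal depth. After each cell was thinned to 1000 UMIs, which left out 0 to 6 cells of a class in a library, the share of NK-like cells with a Gzma UMI was 65.6% (61.8 to 69.2) in MRX, 73.9% (70.3 to 77.4) in CTX and 81.1% (78.4 to 83.5) in Combined, and 63.8% (53.9 to 73) in ctxd18t and 57.9% (48 to 67.4) in combod18t. Combined, not CTX, was highest by this measure. The share of CD8 T-like cells with a Gzmb UMI was 37.4% (34.1 to 40.9) in MRX, 36.3% (32.2 to 40.5) in CTX and 39% (32.5 to 45.8) in Combined, and 22.4% (19.1 to 26) in ctxd18t and 8.51% (6.63 to 10.7) in combod18t. The intervals of the 3 day-7 shares overlapped, and that of combod18t lay below that of ctxd18t. B-like cells, thinned alike, had a Gzmb UMI in at most 0.53% of cells and a Gzma UMI in at most 0.53%, with medians of 3997 to 7506 UMIs per cell before thinning against 4600 to 8685 in CD8 T-like cells. Unthinned, the Gzmb shares of CD8 T-like cells were 61.8% in MRX, 57% in CTX and 60% in Combined, and 45.9% in ctxd18t and 18.2% in combod18t. The thinned share of CD8 T-like cells with a Prf1 UMI was 6.84% in MRX, 6.36% in CTX and 5.05% in Combined, and 17% in ctxd18t and 5.5% in combod18t.

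Members were seen together in the same NK-like cells. At 1000 UMIs, the percent of NK-like cells with 3 or more of the 7 was 51.2% in MRX, 66.4% in CTX and 69.6% in Combined, and 60% in ctxd18t and 43.9% in combod18t. The percent of CD8 T-like cells with none of the 7 was 14.7% in MRX, 17.6% in CTX and 19.3% in Combined, and 21.9% in ctxd18t and 47% in combod18t, so combod18t had the largest share of cells with none seen at this depth. The class holds cluster T8, most of whose cells were in combod18t. It does not hold T2, which shared leading genes with T8 and had most of its cells in the day-7 libraries. The percent of NK-like cells with both Gzma and Gzmb was 38% in MRX, 54.4% in CTX and 53.9% in Combined, and 40% in ctxd18t and 16.8% in combod18t. Of CD8 T-like cells it was 4.48% in MRX, 10.3% in CTX and 10.6% in Combined, and 4.92% in ctxd18t and 1.96% in combod18t, lower in every library. CD8 T-like cells with both Gzmb and Gzmk were 18.8% in MRX, 17% in CTX and 13.8% in Combined, and 8.49% in ctxd18t and 4.58% in combod18t. Those with Gzmb and no Gzmk UMI were 18.7% in MRX, 19.3% in CTX and 25.2% in Combined, and 13.9% in ctxd18t and 3.93% in combod18t. A cell with 0 UMIs of a gene at this depth need not lack its RNA.

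Gzma was spread over most NK-like cells, while in CD4 and regulatory T-like cells it came from few. At least 10 Gzma UMIs were found in 387 of 650 NK-like cells of MRX, 417 of 614 NK-like cells of CTX and 733 of 940 NK-like cells of Combined, and 62 of 107 NK-like cells of ctxd18t and 60 of 108 NK-like cells of combod18t. Of the CD4 T-like cells of CTX, 14 of 540 held all 258 Gzma counts, and 1 of them held 154. In regulatory T-like cells 1 cell held 127 of 175 Gzma counts in CTX, and 1 cell 109 of 138 in Combined. The highest CD4 and regulatory levels of Gzma were thus those of a few cells. Among CD8 T-like cells at 1000 UMIs per cell, Gzma was seen in 8.12% to 19.1% of the cells of cluster T1 and 9.76% to 19.7% of those of T7, the CD8 clusters described with their leading genes in a later paragraph.

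Gzmc was the member most concentrated in single NK-like cells. The NK-like cell with the most Gzmc held 179 UMIs in MRX (17.4% of the class), 280 UMIs in CTX (18.3% of the class) and 238 UMIs in Combined (16.7% of the class), and 208 UMIs in ctxd18t (86% of the class) and 46 UMIs in combod18t (63% of the class). In Combined and ctxd18t that cell had 0 Gzma UMIs, with 0 and 1 Gzmb UMIs, although it had 9393 and 11604 UMIs in all. The combod18t cell had 0 Gzma and 36 Gzmb UMIs. In MRX the cell also held 132 Gzma and 71 Gzmb UMIs, and in CTX 573 and 61. A finer clustering set apart an unnamed T-like cluster of 31 cells led by Gzmc, with Il22, Il23r and Kit also among its leading genes. At that clustering the NK-like Gzmc sum of ctxd18t was 34 counts. Whether the cells named here belong to that cluster was not tested. In combod18t 1 NK-like cell held 362 of the 925 Gzmb counts.

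**Figure D2:**
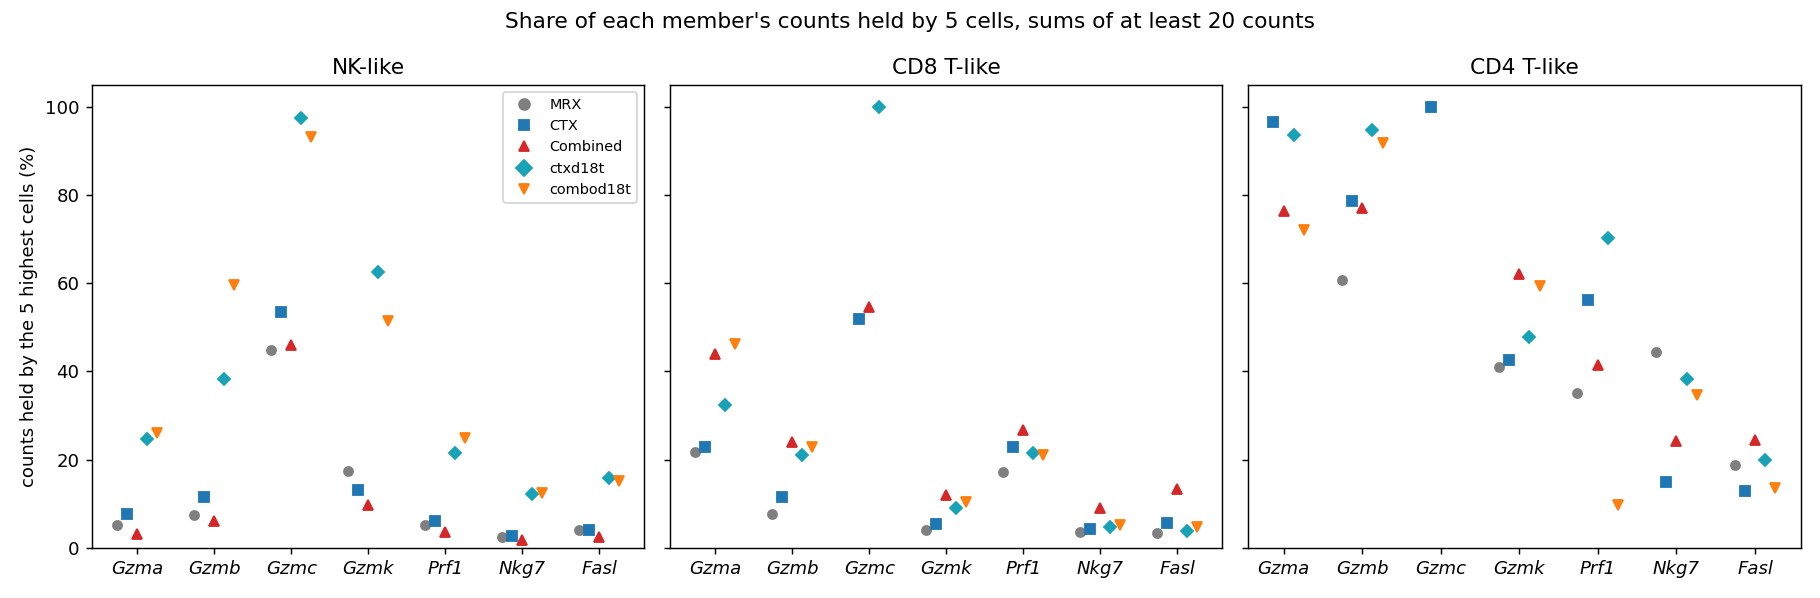
Percent of a member's counts held by the 5 cells with the most, in NK-like, CD8 T-like and CD4 T-like sums of at least 20 counts, 1 point for each library. NK-like Gzma is at most 26.1% and NK-like Gzmc in ctxd18t is 97.5%, while CD4 T-like points lie high for granzymes, as with the 96.5% of CD4 T-like Gzma in CTX.

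CD8 T-like cells were 6 clusters, and their mix differed between libraries. T1 was led by Ccl5, Klrc1 and, of the members, Gzmk and Fasl. T7 was led by Mki67 and Top2a, genes of dividing cells, and T14 by interferon-induced genes such as Ifit1. T6 was led by Cxcr6, a homing receptor, and Pdcd1, the checkpoint receptor PD-1. These clusters were not free of other T-cell markers. In T6, 95.4% of cells had a UMI of Cd8a or Cd8b1, 21.5% one of Cd4 and 11.3% one of Foxp3. In T7, 79.6% had one of Cd8a or Cd8b1 and 22.7% one of Cd4. T8 and T17 shared Fgf13 and Sidt1 among their leading genes, with Lef1 in T8. T1 was 73.6% of CD8 T-like cells in MRX, 32.3% in CTX and 49.5% in Combined. T7 was 10.1%, 39.3% and 34.5% in the same order. T6 was 41.2% in ctxd18t and 28.1% in combod18t, and T8 was 7.23% and 43.3%. A further cluster of CD8-expressing cells, T2, had Sidt1, Fgf13 and Lef1 among its leading genes, as T8 had. The naming rule kept T2 out of the class and T8 in it. T2 held 331 cells in MRX, 237 cells in CTX and 120 cells in Combined, and 52 cells in ctxd18t and 45 cells in combod18t. Its Gzmb stood at 35.1 CPM in MRX, 59.1 in CTX and 24.8 in Combined, and 4.43 in ctxd18t and 0 in combod18t.

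**Figure D3:**
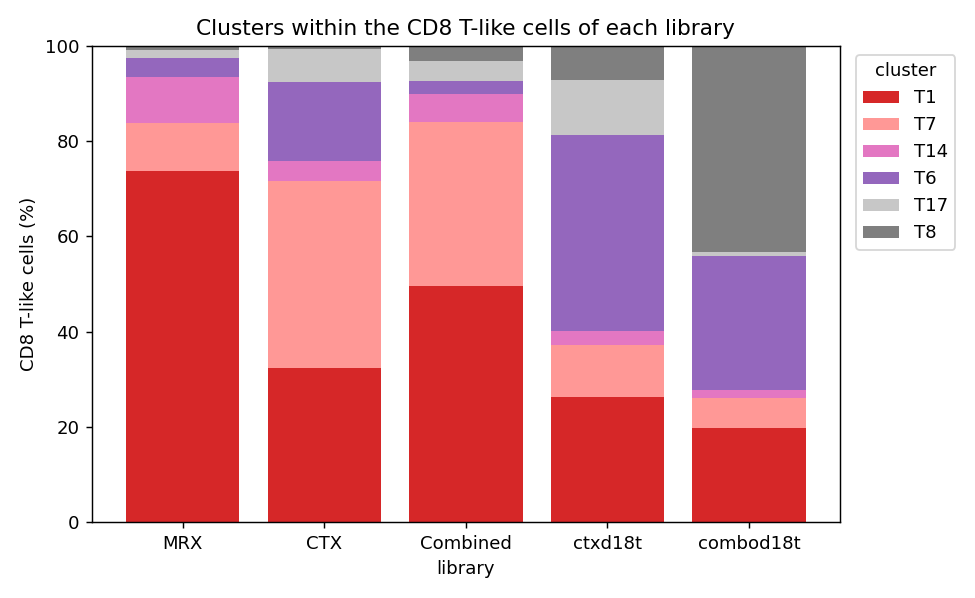
Percent of the CD8 T-like cells of each library in each of its 6 clusters, as stacked bars. T1 takes the largest share in MRX and Combined, T7 in CTX, T6 in ctxd18t and T8 in combod18t.

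The members divided between these clusters. Gzmb was high in T1, T7 and T14 in every library. In T14, which held 13 to 79 cells, it stood at 1235 CPM in MRX, 1434 in CTX and 1251 in Combined, and 1839 in ctxd18t and 947 in combod18t. In T1 it stood at 849 CPM (815 to 885) in MRX, 1705 (1625 to 1789) in CTX and 1318 (1230.0 to 1411) in Combined, and 1114 (1050.5 to 1181) in ctxd18t and 734 (683 to 787) in combod18t, and in T7 at 618 CPM in MRX, 1269.7 in CTX and 1386 in Combined, and 734 in ctxd18t and 460.1 in combod18t. In T8 it stood at 22 CPM in MRX, 0 in CTX and 52.5 in Combined, and 11.9 in ctxd18t and 1.73 in combod18t, from 0 to 5 counts in each library, and the day-7 values rest on 3 to 7 cells. Prf1 was higher in T6 than in T1 in every library, at 194 CPM (148 to 251) in MRX, 226 (199 to 256) in CTX and 168 (84.1 to 301) in Combined, and 517 (491 to 543) in ctxd18t and 123 (109.9 to 137) in combod18t. In T1 it stood at 69.2 CPM in MRX, 69.9 in CTX and 54 in Combined, and 93.7 in ctxd18t and 85.7 in combod18t. T6 held Gzmb at 104 CPM in MRX, 381 in CTX and 45.9 in Combined, and 621 in ctxd18t and 55.1 in combod18t, so its ctxd18t cells had both and its combod18t cells had less of both. The Combined values of T6 rest on 6 cells. Nkg7 was present in T8, at 247 CPM in ctxd18t and 148 in combod18t, where Gzmb and Gzma were near the B-like background, with Gzma at 4.75 CPM in ctxd18t and 2.07 in combod18t.

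At 1000 UMIs per cell, 29.5% (23.9 to 35.7) of T6 cells had a Prf1 UMI in ctxd18t and 8.37% (5.04 to 12.9) in combod18t. For Gzmb these shares were 16.8% (12.3 to 22.1) and 2.33% (0.759 to 5.34). Nkg7 was seen in 85.2% (80.2 to 89.4) and 72.6% (66.1 to 78.4) of the same cells, and Fasl in 30.3% (24.6 to 36.5) and 30.7% (24.6 to 37.3). The day-18 libraries thus lay apart in T6 for Prf1, Gzmb and Nkg7 and overlapped for Fasl. In T1 Prf1 was seen in 7.95% (4.17 to 13.5) and 6.62% (3.22 to 11.8), which overlapped, and Gzmk in 52.3% (44 to 60.5) and 55% (46.7 to 63.1), which overlapped too.

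**Figure D4:**
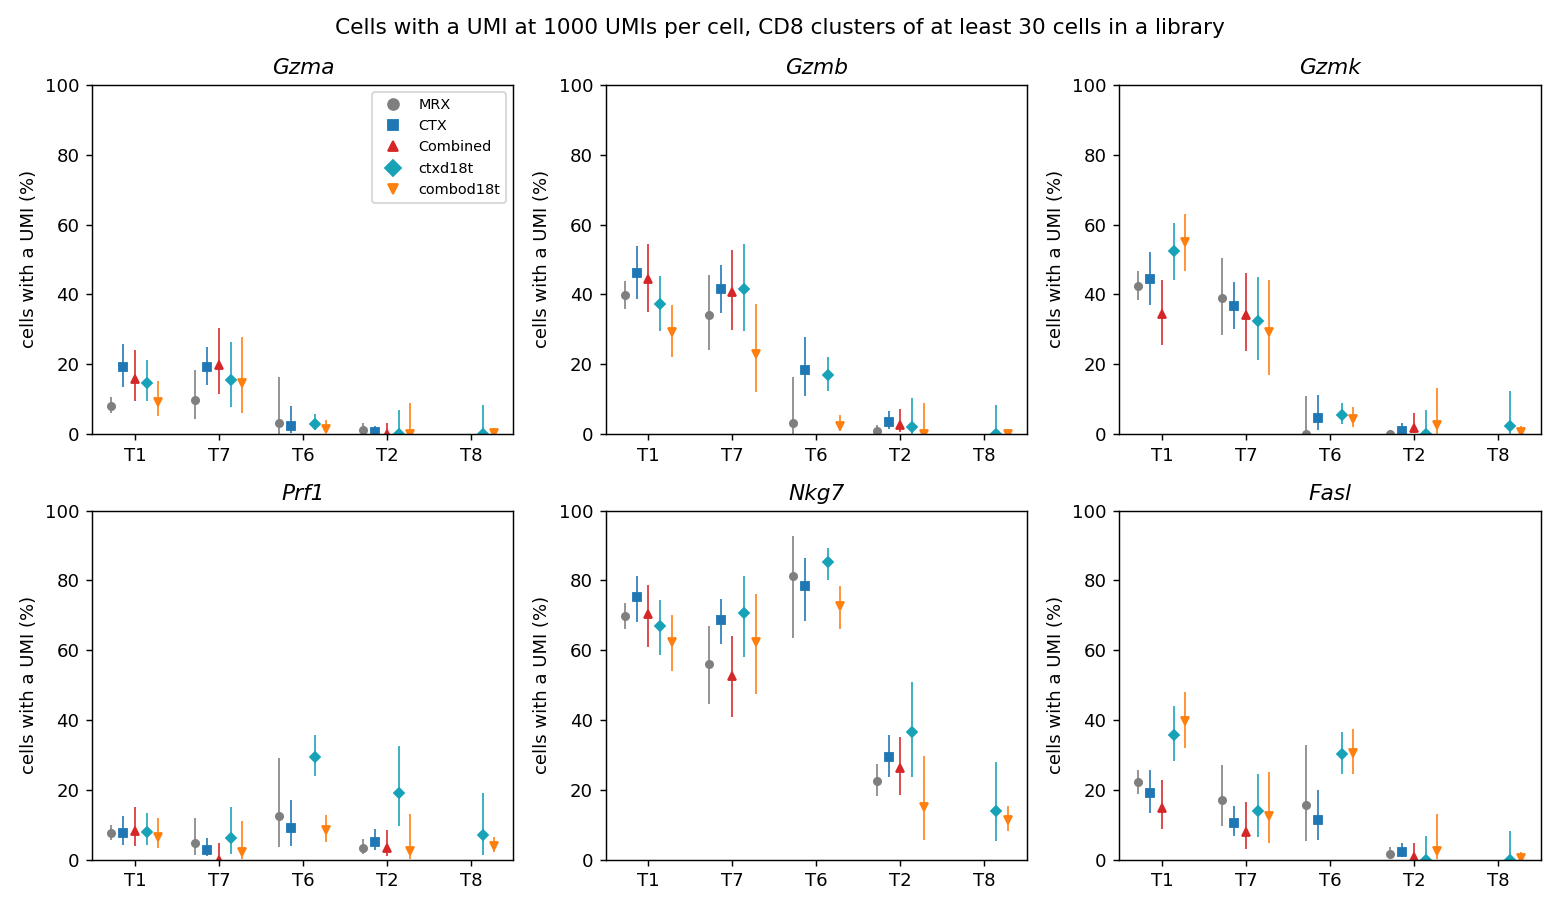
Percent of cells with a UMI of each member at 1000 UMIs per cell, in the clusters T1, T7, T6, T2 and T8 with at least 30 cells in a library, with 95% Clopper-Pearson intervals; T14 and T17 are not drawn. Of the clusters drawn, Gzmk and Gzmb are seen mainly in T1 and T7, Nkg7 also in T6, and Prf1 is highest in T6 of ctxd18t, at 29.5%. T2 shows Nkg7 in 15% to 36.5% of its cells, and Prf1 in 19.2% of them in ctxd18t.

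Genes of the NK-like marker list were counted in T cells beside these values. The list is not limited to NK cells: Txk, one of its genes, was among the leading genes of the CD8-expressing cluster T2. Its sum is therefore not a measure of NK-like RNA alone. Ncr1, also on the list, stood at 0 to 1.82 CPM in CD8 T-like cells, against 370 to 618 in NK-like cells. The 11 NK-like markers summed to 4002 to 4994 CPM in NK-like cells, and in CD8 T-like cells to 355 in MRX, 297 in CTX and 225 in Combined, and 582 in ctxd18t and 729 in combod18t. Of the 11, 3 in MRX, 2 in CTX and 5 in Combined, and 1 in ctxd18t and 1 in combod18t were at 0 in CD8 T-like cells, and Ncr1 had 0 counts in MRX, 6 counts in CTX and 0 counts in Combined, and 7 counts in ctxd18t and 14 counts in combod18t. CD8 T-like cells with at least 10 Gzma UMIs numbered 26 in MRX, 55 in CTX and 24 in Combined, and 30 in ctxd18t and 16 in combod18t, of which 0 in MRX, 1 in CTX and 0 in Combined, and 0 in ctxd18t and 2 in combod18t had a UMI of Ncr1 or Klrb1c. CD4 T-like cells with at least 10 Gzma UMIs were fewer, 0 in MRX, 2 in CTX and 1 in Combined, and 2 in ctxd18t and 1 in combod18t, of which 1 in CTX and 1 in combod18t had such a UMI. Regulatory T-like cells of that kind were 2 in CTX and 2 in Combined, of which 1 in Combined had one, and 0 in the other libraries. These CD4 and regulatory cells were deeper than their class, with medians of 8517 UMIs in the CD4 class of ctxd18t and 16850 to 36130 in the other sums of 1 or 2 cells, against class medians of 4196.5 to 8161.5 in the same libraries. In the CD4 T-like class the marker sum was 247 to 547 CPM and in the regulatory T-like class 161 to 262 CPM. The part of NK-like RNA in the T-cell values was not tested.

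CD4 T-like cells carried little Gzma, Gzmb or Prf1, and in CTX most of it sat in cluster T10, led by Ifng, Csf2 and Ccl1, cytokine genes of activated T cells. T10 held 242 of 258 Gzma counts, 138 of 201 Gzmb counts and 85 of 119 Prf1 counts there. T10 made up 1.83% of the class in MRX, 22.2% in CTX and 18.3% in Combined, and 12.3% in ctxd18t and 1.65% in combod18t. Its Nkg7 stood at 2296 CPM in MRX, 1203 in CTX and 922 in Combined, and 1153 in ctxd18t and 687 in combod18t. The MRX value rests on 7 cells and the combod18t value on 23. Its Prf1 counts were 0 in MRX, 85 in CTX and 7 in Combined, and 116 in ctxd18t and 4 in combod18t, and 1 ctxd18t cell held 85 of the 116. That cell, singled out after its values were seen, held 335 UMIs of Gzmd, 355 of Gzme and 17 of Gzmg, with 0 of Gzma, Gzmb, Gzmc and Gzmk. It also held 119 of Nkg7, 16 of Cd4 and 10 of Cd3e, and 0 of Cd8a, Ncr1 and Klrb1c. Gzmd and Gzme were thus high together in that cell, but not in every cell: in T10 of CTX 1 cell held 110 of the 112 Gzme counts, where all T10 cells held 1 Gzmd count.

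Myeloid cells held little of the members. No member passed 35.4 CPM in monocyte-macrophage-like cells or 14.5 CPM in neutrophil-like cells, and both of these values were Nkg7 in ctxd18t. Plasmacytoid dendritic (pDC-like) cells had Nkg7 at 1.82 CPM in MRX, 17.5 in CTX and 162 in Combined, and 155 in ctxd18t and 165 in combod18t, so Combined stood above MRX and CTX. An unnamed cluster of 74 T-like cells, led by Penk, Cxcr6 and Pdcd1 and absent from Combined, had Gzmb at 972 CPM in 4 cells of MRX, 584 in 5 cells of CTX, 691 in 36 cells of ctxd18t and 276 in 29 cells of combod18t. Gamma-delta T-like cells numbered 35 in MRX, 3 in CTX and 33 in Combined, and 8 in ctxd18t and 61 in combod18t, and their Gzmb stood at 111 CPM in MRX, 0 in CTX and 147 in Combined, and 568 in ctxd18t and 128 in combod18t. The 46 Gzmb counts of ctxd18t there came from 8 cells.

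Libraries were compared in 4 pairs: Combined against CTX, combod18t against ctxd18t, and CTX and Combined each against MRX. The 3 day-7 pairs share libraries, so their values stand side by side and are not independent. A ratio is the log2 ratio of CPM + 1 (pseudocount 1), first library minus second, which understates the change of low genes. A member passed the filter with 50 counts over both libraries and 10 CPM in 1 of them, and was past the fold where its log2 ratio was 1 or more, or -1 or less, a 2-fold difference. The percent of all genes past the same filter and fold is the background for each count. The members that passed are those that are high in at least 1 library.

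**Figure D5:**
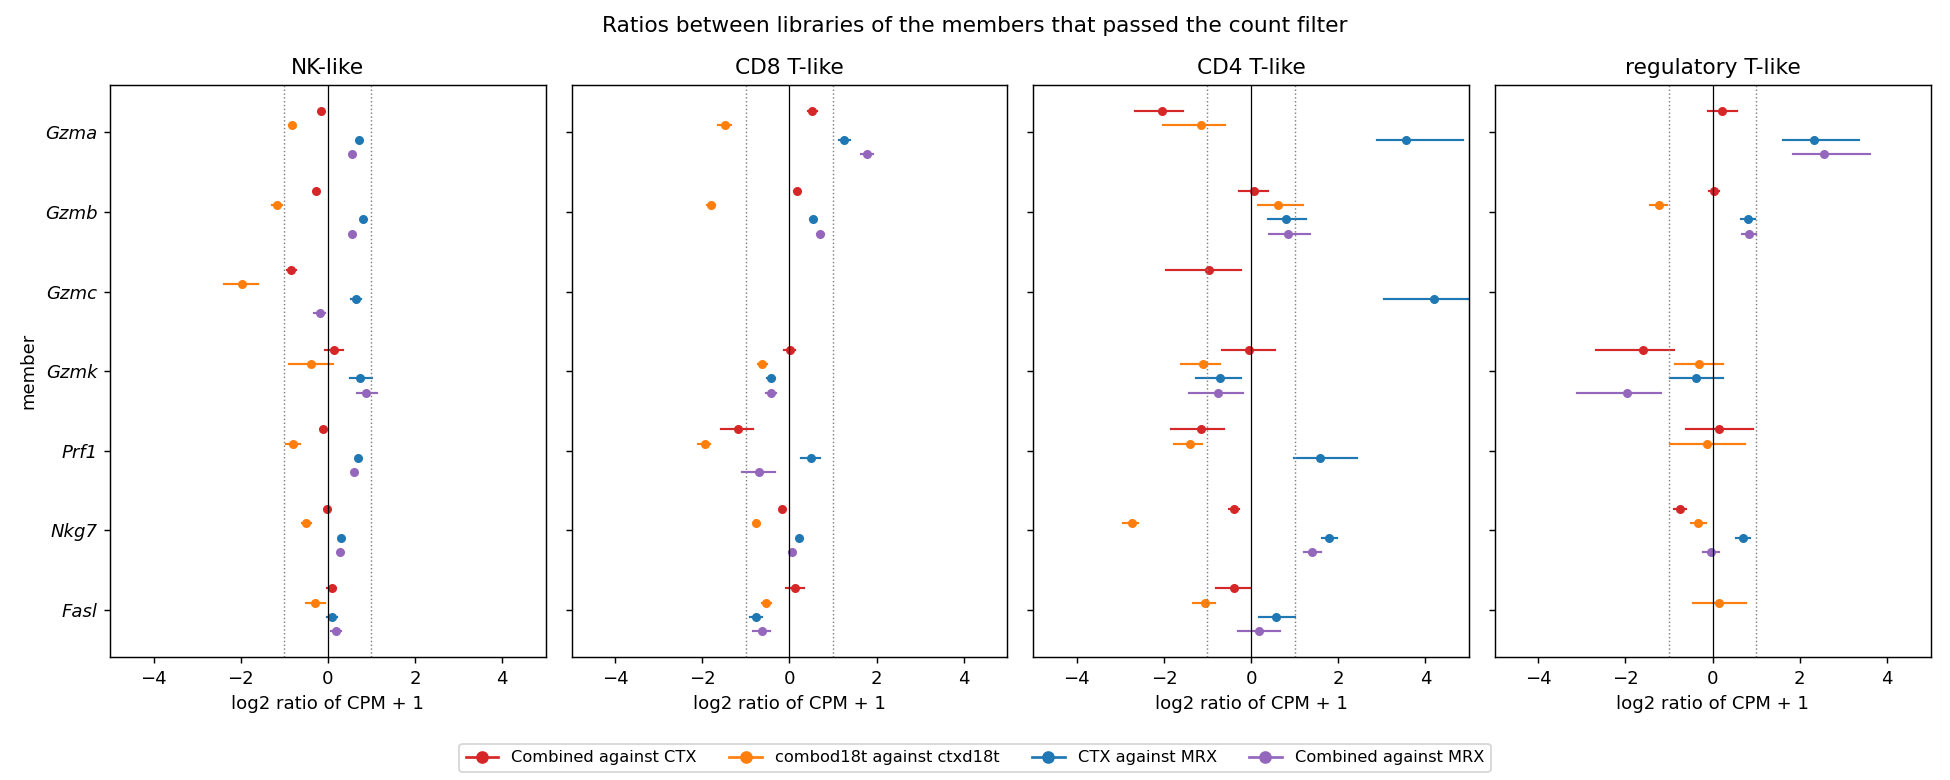
Log2 ratio of CPM + 1 of each member that passed the filter, in 4 classes and 4 pairs of libraries, with 95% conditional binomial intervals; dotted lines mark the 2-fold threshold, and the CD4 Gzmc interval of CTX against MRX, where MRX had 0 counts, runs off the axis. All 11 values past the fold in combod18t against ctxd18t lie left of 0, and all 6 in CTX against MRX lie right of 0.

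In Combined against CTX, the day-7 pair, NK-like members differed by less than the fold: 0 of 7 were past it, beside 0.228% of 7905 genes. The largest ratio was Gzmc at -0.84 (-0.95 to -0.74), followed by Gzmb at -0.27 (-0.30 to -0.23), which was -0.35 (-0.39 to -0.32) within NK-like cluster C4 and 0.05 (-0.02 to 0.12) within C17, the cluster with genes of dividing cells. In CD8 T-like cells 1 of 6 was past the fold (1.06% of genes), Prf1, with 75 counts in Combined and 446 in CTX, lower at -1.17 (-1.57 to -0.84). It was short of the fold under 6 other settings, at -0.99 to -0.32 with the smallest difference in cells thinned to 1000 UMIs. Prf1-rich T6 was 2.73% of the class in Combined and 16.4% in CTX, and within T1 Prf1 had -0.37 (-1.01 to 0.24) and within T7 -0.74 (-1.46 to -0.12). Gzma was higher in Combined at 0.52 (0.41 to 0.62) and Gzmb at 0.18 (0.11 to 0.25), both short of the fold. Without the 5 cells with the most counts in each library, these were 0.08 and -0.01.

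In CD4 T-like cells 2 of 7 members were past the fold and lower in Combined than in CTX (0.984% of genes). They were Gzma at -2.03 (-2.65 to -1.57) and Prf1 at -1.15 (-1.84 to -0.61). Gzma had -0.38 with likely doublets kept and turned to 0.53 without the 5 highest cells, and Prf1 to 0.11 at 1000 UMIs per cell. In regulatory T-like cells 1 of 5 was past the fold (0.909% of genes), Gzmk, at -1.60 (-2.67 to -0.89) from 14 and 69 counts, or -0.96 with a pseudocount of 10 CPM. Gzmb did not differ beyond counting error over the class, at 0.03 (-0.08 to 0.14), but had 0.40 (0.24 to 0.56) within cluster T3 and -0.56 (-0.73 to -0.39) within T9, which had Top2a and Mki67 among its leading genes and was 46.6% of the class in CTX and 32.9% in Combined. Over the class Nkg7 was lower in Combined at -0.74 (-0.88 to -0.61).

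Between the day-18 libraries, the members past the fold in NK-like and CD8 T-like cells were all lower in the library labelled combod18t than in that labelled ctxd18t. In NK-like cells 2 of 7 members were past the fold (2.34% of genes), both lower: Gzmb at -1.16 (-1.28 to -1.05) and Gzmc at -1.98 (-2.39 to -1.61). Gzma had -0.83 (-0.89 to -0.77), Prf1 -0.81 (-0.97 to -0.65) and Nkg7 -0.50 (-0.60 to -0.39), while Gzmk did not differ beyond counting error, at -0.38 (-0.89 to 0.11). The median of the 7 was -0.81, beside 0.06 over all genes that passed. These sums rest on 108 and 107 cells. Within cluster C4, which was 93.5% and 97.2% of them, Gzma had -1.01 (-1.08 to -0.94) and Gzmb -1.55 (-1.70 to -1.41). Without the highest cell of each library Gzmb had -1.70, and without the 5 highest -1.80. The Gzmc value was that of 1 cell: without the highest cell of each library it was -0.58, and at a finer clustering it was 0.56.

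In CD8 T-like cells 3 of 6 members were past the fold (2.86% of genes), and all 3 were lower in combod18t: Prf1 at -1.94 (-2.09 to -1.82), Gzmb at -1.80 (-1.89 to -1.72) and Gzma at -1.48 (-1.64 to -1.34). Nkg7 had -0.77 (-0.82 to -0.73), Gzmk -0.62 (-0.73 to -0.52) and Fasl -0.53 (-0.64 to -0.43). T8, with almost no Gzmb, was 43.3% of the combod18t cells against 7.23%. Without T8 the ratios were -1.65 for Prf1, -1.22 for Gzmb and -0.92 for Gzma. Nkg7 then had -0.28, Gzmk -0.05 and Fasl 0.04. Within T1 they were -0.13 (-0.56 to 0.30) for Prf1, -0.60 (-0.74 to -0.47) for Gzmb and -1.68 (-1.98 to -1.41) for Gzma. Within T6 they were -2.06 (-2.25 to -1.90), -3.47 (-3.75 to -3.25) and -0.997 (-1.29 to -0.73), from 215 and 245 cells. Prf1 and Gzmb thus had larger ratios in T6 than in T1, and Gzma a larger ratio in T1. Whether the clusters differ from each other was not tested.

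In CD4 T-like cells 5 of 6 members were past the fold and lower in combod18t, beside 10.5% of genes: Nkg7 at -2.74 (-2.95 to -2.59), Prf1 at -1.40 (-1.76 to -1.13), Gzma at -1.15 (-2.01 to -0.60), Gzmk at -1.10 (-1.62 to -0.71) and Fasl at -1.07 (-1.34 to -0.84). T0, led by Lef1 and Igfbp4, was 80.5% of the combod18t class and 21.9% of the ctxd18t class. Without T0, Gzmk had 0.75, Fasl 0.17 and Nkg7 -0.97. Without the 5 highest cells, Gzma had 0.39 and Prf1 0.12. Gzmb went the other way at 0.62 (0.15 to 1.19), with 165 of its 206 combod18t counts in 1 cell. In regulatory T-like cells 1 of 5 was past the fold (2.33% of genes), Gzmb, at -1.23 (-1.43 to -1.04). Within T3, the largest regulatory cluster in both libraries, it had -1.61 (-1.83 to -1.40).

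In CTX against MRX, 0 of 7 NK-like members were past the fold (1.23% of genes). The ratios ran from 0.10 (-0.02 to 0.22) for Fasl to 0.82 (0.78 to 0.86) for Gzmb, with Gzma at 0.71 (0.69 to 0.74). NK-like cells were 2 clusters, C4 and C17, the second led also by genes of dividing cells such as Mki67 and Top2a. C17 was 8.92% of NK-like cells in MRX, 17.3% in CTX and 18.3% in Combined, and 2.8% in ctxd18t and 6.48% in combod18t. Gzmb had 0.84 (0.80 to 0.89) within C4 and 1.03 (0.91 to 1.15) within C17, where Prf1 had 1.18 (1.00 to 1.37) and Gzmc 1.93 (1.38 to 2.59). In CD8 T-like cells 1 of 6 was past the fold (4.51% of genes), Gzma, higher in CTX at 1.26 (1.14 to 1.38), and within T1 it had 1.49 (1.31 to 1.68). Gzmb had 0.53 (0.47 to 0.60) in the class and 1.00 (0.91 to 1.10) in T1. Fasl went the other way at -0.76 (-0.91 to -0.62) in the class and -0.22 (-0.44 to -0.01) in T1. T1 was 73.6% of MRX and 32.3% of CTX cells.

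In CD4 T-like cells 4 of 7 members were past the fold and higher in CTX than in MRX (6% of genes). Nkg7 had 1.80 (1.63 to 1.98), Prf1 1.58 (0.98 to 2.43) and Gzma 3.56 (2.88 to 4.86). Gzmc, the other of the 4, passed the filter through CTX alone, with 59 counts there and 0 in MRX, and 57 of the 59 were in 1 cell, so no fold is given. Cluster T10 was 22.2% of CTX and 1.83% of MRX CD4 T-like cells. Prf1 had 0.56 with likely doublets kept. Without the 5 highest cells, Nkg7 had 2.40 and Gzma -0.04. In regulatory T-like cells 1 of 4 was past the fold (4.27% of genes), Gzma, at 2.32 (1.62 to 3.37), or 0.17 without the 5 highest cells. Gzmb was higher there at 0.80 (0.64 to 0.97). T9 was 21% of the regulatory class in MRX and 46.6% in CTX, and Gzmb had 0.64 (0.43 to 0.86) within T3 and 1.02 (0.75 to 1.30) within T9.

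Combined against MRX gave 0 of 7 members past the fold in NK-like cells (1.58% of genes), with Gzma at 0.56 (0.53 to 0.58) and Gzmb at 0.55 (0.51 to 0.59). Of CD8 T-like members 1 of 6 was past it (4.18% of genes), Gzma, higher in Combined at 1.78 (1.65 to 1.92). Gzmb had 0.71 (0.63 to 0.79) there and Prf1 -0.69 (-1.09 to -0.33). Of CD4 T-like members 1 of 4 was past it (5.37% of genes), Nkg7, at 1.40 (1.22 to 1.60), or 0.51 with likely doublets kept. In regulatory T-like cells 2 of 4 were past it (3.06% of genes), Gzma higher at 2.55 (1.84 to 3.60), or 0.98 without its highest cell, and Gzmk lower at -1.97 (-3.12 to -1.19).

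31 other genes of the pathway were listed: 6 further granzymes, granule proteins such as Srgn, the release machinery such as Rab27a and Unc13d, serpins that inhibit granzymes, death receptors, and transcription factors such as Tbx21 and Eomes. In NK-like cells, 1 of 27 that passed was past the fold in Combined against CTX, Gzmd, lower at -1.13 (-1.54 to -0.83), and 0 of 22 in combod18t against ctxd18t (0.228% and 2.34% of all genes). The Gzmd value was that of 1 cell, which held 131 of the 160 CTX counts, and without the highest cell of each library it turned to 0.71. For CD8 T-like cells 0 of 24 were past it in Combined against CTX and 0 of 24 in combod18t against ctxd18t, beside 1.06% and 2.86% of all genes, so these counts are near the background. The median ratio of the 24 between the day-18 libraries was -0.43, beside -0.01 over all genes that passed. For CD4 T-like cells 17 of 26 were past the fold and lower in combod18t, beside 8.58% of all genes, and T0 was 80.5% of that class in combod18t and 21.9% in ctxd18t. In the same class 11 of 25 were past it and higher in CTX than in MRX, and 7 of 22 higher in Combined than in MRX, beside 4.83% and 4.3% of all genes. For NK-like cells 1 of 27 was higher and 1 lower in CTX against MRX, and 3 higher and 1 lower in Combined against MRX (1.23% and 1.58% of all genes). In the same pairs 0 and 1 of 24 CD8 T-like and 0 and 2 of 23 regulatory T-like genes were past it (4.51% and 4.18%, 4.27% and 3.06%). In regulatory T-like cells 0 of 23 were past it between the day-18 libraries and 1 of 23 in Combined against CTX, beside 2.33% and 0.909% of all genes.

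The genes whose levels followed a member most closely were found, with the 7 members left out of the search, over 65 sums of a class in a library, among 6751 genes, by Pearson's r of log2(CPM + 1). The sums share libraries and depth and differ mainly in cell class, so r is a description. For Gzma they were Klre1 (0.83), Serpinb9 (0.80) and Cd160 (0.79), and for Gzmb Tnfrsf9 (0.85), Cysltr2 (0.84) and Il2rb (0.84). For Gzmk they were Cst7 (0.83), Trgc2 (0.83) and Sh2d1a (0.82), and for Prf1 Eomes (0.90), Tbx21 (0.88) and Samd3 (0.87). For Nkg7 they were Cst7 (0.91), Cd27 (0.91) and Tbx21 (0.90), and for Fasl Cd160 (0.92), Eomes (0.89) and Samd3 (0.87). For Gzmc they were ENSMUSG00000121360 (0.85), Klra7 (0.83) and Tmsb15a (0.83), the first of them a gene without a symbol in the files. Had members been searched too, Gzmc would stand first for Gzma (r = 0.854) and Gzma for Gzmc, and Nkg7 would stand first for Gzmb (r = 0.867) and for Gzmk (r = 0.843). Among the members, Nkg7 and Fasl were the most alike pair (r = 0.90) and Gzmc and Gzmk the least (r = 0.42).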

How the data were processed

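Libraries were made with the 10x 3′ V4 on-chip multiplexing kit and run through Cell Ranger 9.0.1 (per the labels' protocols), and the submitters' processing notes name GRCm39 and Seurat 5.2.0. The deposited matrices hold counts of UMIs per gene and cell as whole numbers, which the authors did not normalise. Cells needed 200 genes and at most 15% mitochondrial counts. Scrublet's automatic threshold marked at most 0.13% of a library, so cells of the highest 5% of scores were removed instead. Counts were scaled to 10000 per cell, and 2000 variable genes, 30 components and Leiden resolution 1 (scanpy 1.11.5, leidenalg 0.10.2) gave 36 clusters, T-like cells being clustered again.

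Clusters were named from fixed marker lists by a scoring rule set after the data were seen. That rule kept clusters T2 (CD8) and T11 (CD4) out of their classes, since their 10 leading genes held more markers of another class. Levels have exact Poisson intervals, ratios exact conditional binomial intervals (scipy 1.17.1) and shares Clopper-Pearson intervals, all at 95%. The ratio steps were tested on simulated counts. With 1 library per group there was no test. The members, lists and comparisons were chosen with earlier results of these data known. The 7 members are named in full. Other listed genes are named with values where past the fold in NK-like or CD8 T-like cells in Combined against CTX or combod18t against ctxd18t, and the 3 genes most like each member by correlation. Sequences are from RefSeq for GRCm38.p6, and no coordinate was read from the deposited files. The precision is that of the counts of a class sum, and depth per library stands with the results.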

Additional observations from a re-analysis of the deposited data

Results flagged for a closer look

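In CD8 T-like cells the ratios of Gzma and Gzmb had opposite signs in the day-7 and the day-18 pair, as the libraries are labelled. For Gzma the log2 ratio was 0.52 in the day-7 pair (Combined against CTX) and -1.48 in the day-18 pair (combod18t against ctxd18t), a gap of 1.995. For Gzmb the ratios were 0.18 and -1.80, a gap of 1.977. These signs hold for the day-18 libraries as labelled: with their names exchanged the day-18 ratios would be 1.48 and 1.80, of the same sign as on day 7, and the gaps -0.96 for Gzma and -1.62 for Gzmb. Whether the names are exchanged was not tested. With 1 library per group the difference between the pairs was not tested either. The day-7 ratios were 0.08 for Gzma and -0.01 for Gzmb without the 5 highest cells of each library. Within cluster T1 Gzma kept the opposite signs, at 0.34 and -1.68. At 1000 UMIs per cell the share of T1 cells with a Gzma UMI was 15.7% in Combined and 19.1% in CTX, and 9.27% in combod18t and 14.6% in ctxd18t, with intervals that overlapped in both pairs. In T1 Gzmb had ratios of -0.37 and -0.60. Within T7 Gzmb had opposite signs, at 0.13 and -0.67, and Gzma had 0.07 (-0.07 to 0.21) and -0.34. The share of T8 in CD8 T-like cells, 43.3% in combod18t and 7.23% in ctxd18t, moved with the day-18 ratios, which without T8 were -0.92 and -1.22. By the names used here day and, judged by the shared barcodes, capture differ together between the pairs and cannot be told apart.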

How the results depend on the processing

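A value here is 1 member in 1 class. Past the fold were 4 of 25 values in Combined against CTX and 11 of 24 in combod18t against ctxd18t. In CTX against MRX they were 6 of 24, and in Combined against MRX 4 of 21. Over the 4 classes, in the same order of pairs, 0.228% to 1.06%, 2.33% to 10.5%, 1.23% to 6% and 1.58% to 5.37% of all genes were past it. A pseudocount of 10 CPM gave 2 in Combined against CTX. Thinning to 1000 UMIs, which leaves fewer counts, gave 1 in Combined against CTX, 2 in CTX against MRX and 1 in Combined against MRX. Keeping likely doublets gave 8 in Combined against MRX, and so did no filter on low counts, 8 of 28 values. Other settings were chosen after seeing the data. Without the highest cell of each gene and library, Combined against MRX gave 2. Without the 5 highest cells, Combined against CTX gave 1, CTX against MRX 3 and combod18t against ctxd18t 7.

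Of the 25 values past the fold, 20 stayed past it in the same direction with the larger pseudocount, 23 with 500 genes per cell, 21 with doublets kept, 21 after thinning, 20 with the mean of each cell's CPM, 23 with median-of-ratios scaling, 21 at resolution 2 and 23 with gated T cells. With clusters T2 and T11 kept in their classes 24 stayed, without T0 22, without T8 24, without shared barcodes 25, without the highest cell 21 and without the 5 highest cells 15. Values that changed sign were Gzmc in NK-like cells of the day-18 pair, at 0.56 at resolution 2, and Prf1 in CD4 T-like cells of Combined against CTX, at 0.11 after thinning. Without T0, CD4 T-like Gzmk and Fasl of the day-18 pair had 0.75 and 0.17. Without the 5 highest cells, CD4 T-like Gzma had 0.53 in Combined against CTX, 0.39 in the day-18 pair and -0.035 in CTX against MRX, and Prf1 0.12 in combod18t against ctxd18t. At resolution 2 the NK-like Gzmc sum of ctxd18t was 34 counts, the same number as without its highest cell at resolution 1. Whether that cell had left the class was not tested, and for thinning the cause was not tested. Median-of-ratios scaling shifted CD4 T-like ratios by -0.12 in the day-7 pair of Combined and CTX and by 0.11 in combod18t against ctxd18t.

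No paired analysis was possible because each group is 1 library, and no replicate was left out for the same reason. Few cells limit the NK-like sums of the day-18 libraries, with 107 and 108 cells, the gamma-delta T-like sums, with 3 to 61, and T6 of Combined, with 6.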
